A study of Homo sapiens with 10 samples.

Results

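IL4I1, the gene for a secreted oxidase of aromatic amino acids, was examined together with 8 genes of the aryl hydrocarbon receptor (AHR) pathway: AHR, its partner ARNT, its repressor AHRR, the target genes TIPARP, CYP1A1 and CYP1B1, and the tryptophan enzymes IDO1 and KYNU. These 9 genes, found by symbol among the 60574 genes of the deposited count table, were chosen by the counts of these same libraries, in which IL4I1 differed between the guides, with the question whether AHR targets follow it. The fold changes of the 9 genes are therefore given as a description with no p-value, and nothing is read from whether they passed the threshold. U266 is an established human multiple myeloma line labelled as plasma cells. The cells of all 10 libraries were transduced with lentivirus for dCas9-VPR, a Cas9 that does not cut and carries transcriptional activators, and were kept under puromycin and blasticidin. In 5 libraries (A to E) the cells carried a guide RNA to the start site of EFNB2, and in the other 5 (A to E) a non-targeting scrambled guide. The labels name no other treatment and do not say whether libraries of a guide came from separate transductions, so the p-values rest on a spread between libraries that may be technical.

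IL4I1 oxidises phenylalanine, tyrosine and tryptophan outside the cell, releasing hydrogen peroxide, ammonia and keto acids. The keto acid made from tryptophan gives rise to AHR ligands, as does kynurenine, which IDO1 and TDO2 begin to make from tryptophan and KYNU breaks down further. Ligand-bound AHR leaves its cytosolic chaperones, pairs with ARNT in the nucleus and binds a short DNA element whose core is GCGTG. CYP1A1, CYP1B1, TIPARP and AHRR are classical targets, and TIPARP and AHRR act back on the receptor as inhibitors. IL4I1 was named for its induction by interleukin 4 in B cells and is best known in macrophages, dendritic cells and B cells.

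Totals ran from 47268072 to 56513548 counts per library, and 3 counts in a library correspond to 0.0537 to 0.0627 CPM, the usual scaling of counts to library size. EFNB2, the targeted gene, stood at 0.119 CPM ± 0.0509 with the control guide and 1.21 CPM ± 0.198 with its guide (SD, n = 5 each), as the labels call for. Plasma cell markers were present: SDC1 stood at 3015 and 2121 CPM, TNFRSF17 at 306 and 236 CPM and XBP1 at 313 and 361 CPM with the control and the EFNB2 guide. CD38 was low with the control guide (1.78 CPM against 8.03 CPM). The B cell marker MS4A1 was close to absent, with 4 counts in the EFNB2 guide libraries and 2 in the controls. The A libraries stood apart from the other libraries of their guide in several genes. Without both A libraries the log2 fold change was 1.49 for IL4I1, 1.93 for CYP1B1, 0.53 for CYP1A1, 0.45 for AHRR, 0.25 for TIPARP and -0.16 for ARNT. Between the guides, 45.4% of the 17834 genes tested were past the threshold, an adjusted p of 0.05 in edgeR's quasi-likelihood test. With the EFNB2 guide 22.8% were higher and 22.6% lower.

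Promoter sequences are shown for IL4I1 and for the 3 target genes with an entry, to let the AHR element be read beside the counts. They come from RefSeq (GRCh38.p14), run from 250 bases before to 50 bases after the annotated start in the direction of the gene, and carry capitals at every GCGTG on either strand (CACGC where it lies on the opposite strand).
IL4I1 (chr19:49929455-49929754, minus strand): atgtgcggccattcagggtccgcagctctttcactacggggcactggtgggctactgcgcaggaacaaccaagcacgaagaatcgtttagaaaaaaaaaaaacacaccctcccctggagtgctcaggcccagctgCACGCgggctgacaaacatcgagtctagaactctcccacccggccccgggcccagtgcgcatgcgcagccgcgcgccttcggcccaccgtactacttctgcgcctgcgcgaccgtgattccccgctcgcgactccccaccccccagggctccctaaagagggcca
CYP1A1 (chr15:74725479-74725778, minus strand): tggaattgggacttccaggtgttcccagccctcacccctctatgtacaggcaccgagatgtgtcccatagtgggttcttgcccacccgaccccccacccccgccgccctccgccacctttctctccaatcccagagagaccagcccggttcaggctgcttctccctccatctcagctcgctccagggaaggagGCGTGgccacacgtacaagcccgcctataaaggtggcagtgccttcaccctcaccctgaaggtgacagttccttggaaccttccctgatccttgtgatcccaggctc
TIPARP (chr3:156674340-156674639, plus strand): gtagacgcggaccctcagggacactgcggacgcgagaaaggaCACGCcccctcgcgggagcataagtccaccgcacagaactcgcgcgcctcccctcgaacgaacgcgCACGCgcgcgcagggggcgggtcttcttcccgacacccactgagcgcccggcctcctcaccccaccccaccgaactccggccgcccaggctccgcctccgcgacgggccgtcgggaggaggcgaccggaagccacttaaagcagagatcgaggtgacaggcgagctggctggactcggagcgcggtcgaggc
AHRR (chr5:321464-321763, plus strand): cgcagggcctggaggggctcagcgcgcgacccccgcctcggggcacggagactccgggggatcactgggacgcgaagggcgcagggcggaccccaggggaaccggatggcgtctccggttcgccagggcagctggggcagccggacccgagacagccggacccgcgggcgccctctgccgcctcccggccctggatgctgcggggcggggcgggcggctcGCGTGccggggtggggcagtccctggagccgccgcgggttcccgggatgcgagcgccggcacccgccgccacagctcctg

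The core lay at -115 from the start in IL4I1, at -57 in CYP1A1, at -208 and -142 in TIPARP and at -30 in AHRR. Among all 27305 promoters of this length 36.3% held GCGTG on either strand, against 5 of the 7 members with an entry (71.4%). The longer form TNGCGTG, which contains the core, was found in 1 member, AHRR, and in 5.51% of all promoters. Of the 30 promoters found for a list of 35 other AHR targets, 12 held GCGTG (40.0%) and 5 held TNGCGTG (16.7%). CYP1B1 and IDO1 had no entry. A match in these letters describes the sequence only.

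IL4I1 (chromosome 19, 49889654 to 49929504 in GRCh38, minus strand) was expressed in every library. With the control guide the libraries A to E stood at 34.4, 34.1, 36.8, 35.8 and 36.6 CPM. With the EFNB2 guide they stood at 105.8, 101.0, 100.9, 100.6 and 100.5 CPM. The groups lay far apart, and the libraries B to E of the EFNB2 guide were nearly equal, with A a little above them. The means were 35.5 CPM ± 1.24 and 101.7 CPM ± 2.26 (SD, n = 5 each), a 2.86-fold difference (2.75-fold to 2.98-fold at 2 standard errors, SE). Of the tested genes 269 passed the threshold with a larger rise. Among the 9335 genes with a mean of at least 10 CPM, IL4I1 ranked 23rd by log2 fold change. In bulk RNA more cells with a transcript and more RNA per cell cannot be told apart.

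**Figure D1:**
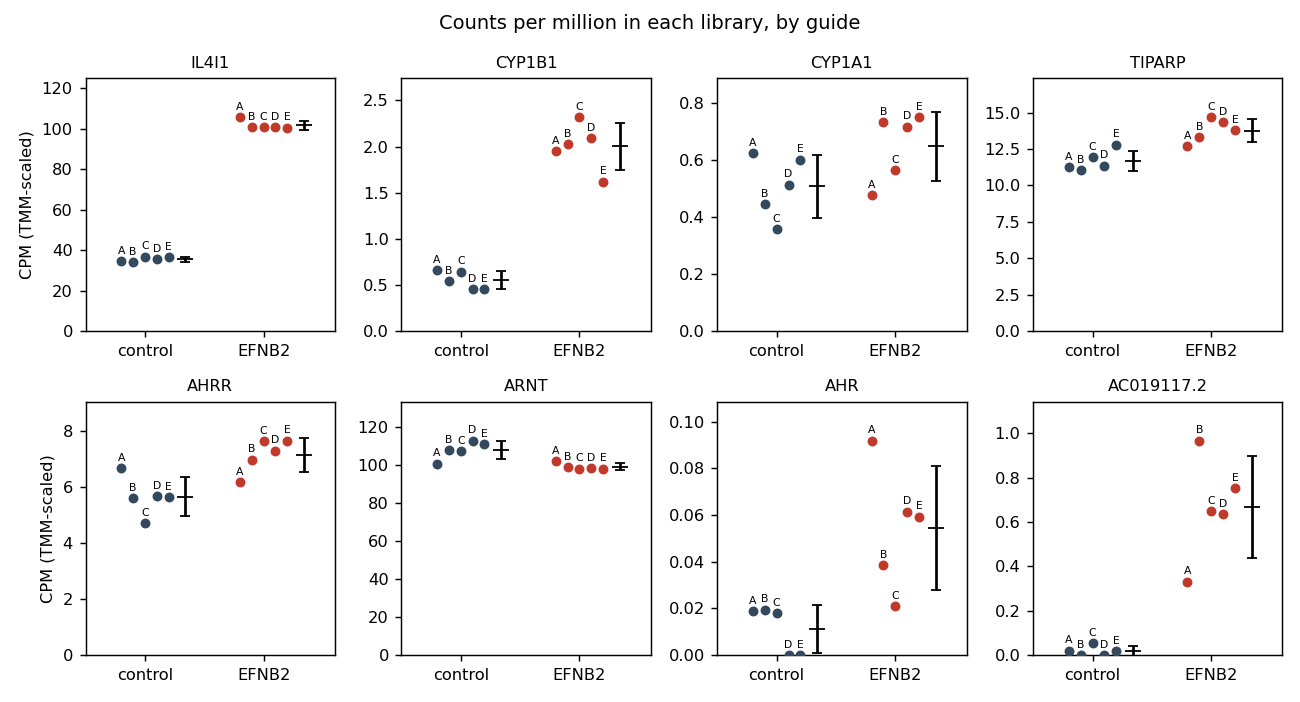
CPM (vertical axis, from 0, TMM-scaled) in each library (letters) of the control guide (dark blue) and the EFNB2 guide (red), with mean and SD as bars, for 7 of the 9 genes and for AC019117.2, a gene model that shares exons with AHR. IL4I1 and CYP1B1 separate the guides, CYP1A1, TIPARP, AHRR and ARNT overlap, and AHR stays below 0.1 CPM everywhere.

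RefSeq gives IL4I1 and NUP62, a nuclear pore gene read in the same direction, the same start at 49929504, so the promoter shown for IL4I1 is also that of NUP62. In GENCODE 29 the 2 starts lie 0.224 kb apart. In GENCODE 29, 336 of the 2563 exon bases of IL4I1 (13.1%) also belong to NUP62 on the same strand, and 75 bases (2.93%) lie opposite the transcription factor gene ATF5. How the counting treated reads on shared bases, and whether it used strand, is not given in the sources used here. NUP62 rose from 271 to 323 CPM (log2 fold change 0.26, SE 0.02, adjusted p = 9.13e-08), much less than the difference in IL4I1. ATF5 rose from 35.8 to 51.0 CPM (0.51, SE 0.06, adjusted p = 2.75e-06), and its A library with the EFNB2 guide, at 59.5 CPM, was the highest.

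Among the other neighbours on chromosome 19 the changes were mixed. Of 10 tested neighbours, NUP62 and ATF5 included, 4 rose and 1 fell, beside 22.8% higher and 22.6% lower among all tested genes. AKT1S1, the gene for an mTORC1 inhibitor, rose (0.37, SE 0.03) and PTOV1 fell (-0.16, SE 0.04). VRK3, ZNF473, MED25 and TBC1D17 did not pass. The log2 fold changes of the 10 had a median of 0.09, against 0.01 over all tested genes.

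**Figure D2:**
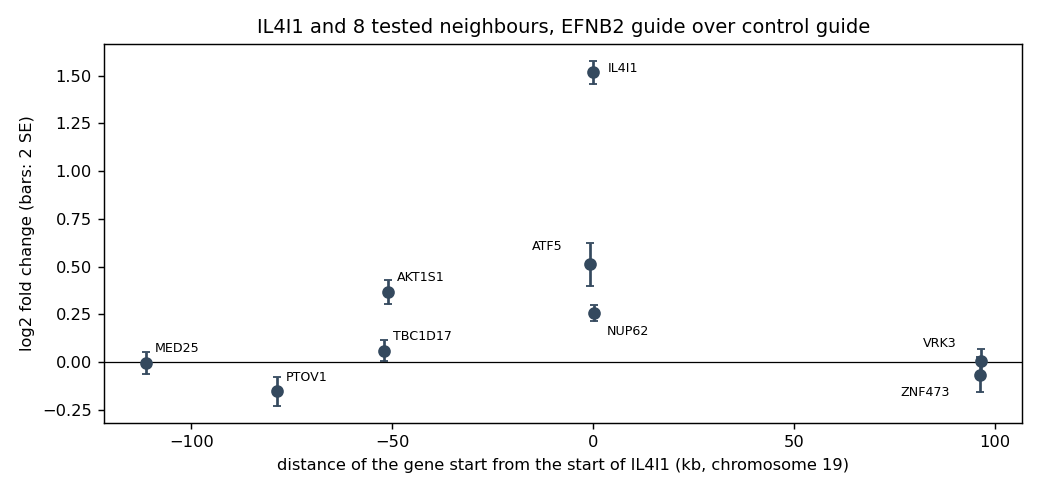
Log2 fold change of IL4I1 and 8 of its 10 tested neighbours (vertical axis, bars of 2 SE on each side) against the distance of each gene's start in GENCODE 29 from that of IL4I1 in kb. IL4I1 stands at 1.52 while NUP62 and ATF5, whose starts lie within 1 kb, stand at 0.26 and 0.51.

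Per length of exon, in CPM per kb, ARNT was highest of the 9 genes with the control guide (16.5 ± 0.706) and IL4I1 next (13.9 ± 0.483), with ranges that did not overlap (SD, n = 5 each). With the EFNB2 guide the order changed: IL4I1 stood at 39.7 ± 0.882 and ARNT at 15.2 ± 0.270 (SD, n = 5 each). TIPARP (2.31 and 2.73 CPM per kb) and AHRR (0.738 and 0.933) followed under both guides. CYP1A1 and CYP1B1 came next, at 0.148 and 0.0919 CPM per kb with overlapping ranges under the control guide. Under the EFNB2 guide CYP1B1 (0.333) lay above CYP1A1 (0.189) in every library. AHR, IDO1 and KYNU were at or close to the limit of detection.

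The receptor gene AHR (chromosome 7, 17298652 to 17346147, plus strand) was barely detected. The EFNB2 guide libraries A to E held 5, 2, 1, 3 and 3 counts and the controls 1, 1, 1, 0 and 0. In sum 14 counts stood against 3, a ratio of 4.97 with a 95% exact interval of 1.39 to 26.9. The interval covers counting error only, since counts were summed over each guide and the spread between libraries does not enter it. The reads are also not counted as molecules. AHR did not pass the filter on low counts and was not tested.

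A second gene model at the same place held more reads. AC019117.2, named here after its values were seen, is annotated in GENCODE 29 as a protein-coding gene on the same strand that joins 10 exons lying on AHR exons to 2 distant exons of 1150 bases further downstream. It shares 2373 of its 3523 exon bases with AHR. Its EFNB2 guide libraries A to E held 18, 50, 31, 31 and 38 counts and its controls 1, 0, 3, 0 and 1, so that the groups did not overlap. The summed counts were 168 and 5, a ratio of 35.7 (95% exact interval 15.02 to 111.5, counting error only). The model reached the level of the filter in the 5 libraries of the EFNB2 guide and in 0 controls, so no test is given. The last exon of AHR, 3230 bases long, belongs to AHR and not to this model. Gene counts cannot tell whether the reads given to AC019117.2 fell on exons of AHR or on the distant exons, which an annotated long noncoding RNA also covers.

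**Figure D3:**
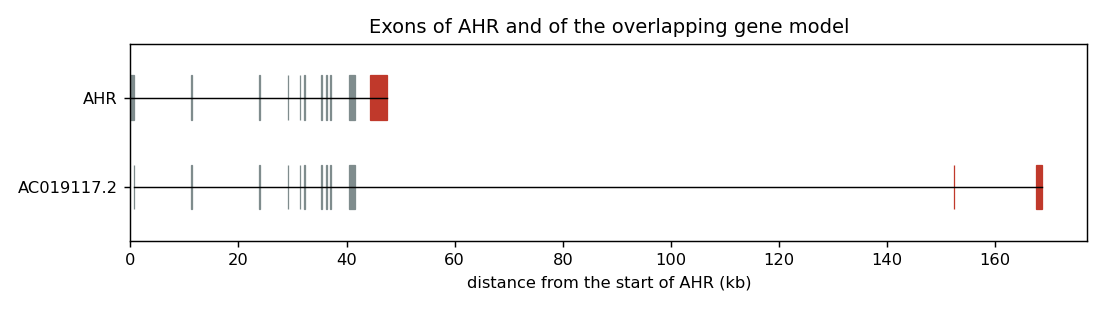
Exons of the main AHR transcript (upper row) and of AC019117.2 (lower row) drawn to scale against the distance from the start of AHR in kb. Grey exons are shared in full or in part, and red exons, the last exon of AHR and 2 distant exons of AC019117.2, belong to 1 of the 2 models only.

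ARNT (chromosome 1, 150809713 to 150876599), the DNA-binding partner of AHR, was abundant and slightly lower with the EFNB2 guide. Its controls A to E stood at 100.6, 107.6, 107.0, 112.6 and 110.8 CPM. Its EFNB2 guide libraries stood at 102.1, 98.9, 97.9, 98.2 and 97.9 CPM. The control A and EFNB2 A libraries were the only ones to overlap, and the log2 fold change was -0.12 (SE 0.03).

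Of the target genes, CYP1B1 differed most. CYP1B1 (chromosome 2, 38067509 to 38076151, minus strand) encodes a cytochrome P450 that oxidises oestrogens and aromatic hydrocarbons. Its controls A to E stood at 0.662, 0.543, 0.645, 0.459 and 0.456 CPM, from 25 to 36 counts each. With the EFNB2 guide they stood at 1.95, 2.03, 2.32, 2.09 and 1.62 CPM, from 82 to 111 counts each. Every library of the EFNB2 guide lay above every control. The means were 0.553 CPM ± 0.0983 and 2.00 CPM ± 0.254 (SD, n = 5 each), a 3.61-fold difference (2.94-fold to 4.42-fold at 2 SE), and the gene stayed weakly expressed. On the deposited normalized values, where 1 is added before taking logs, its log2 fold change was 0.94 in place of 1.85. The antisense gene CYP1B1-AS1, which lies opposite 11.3% of its exon bases, held 84 counts with the EFNB2 guide and 72 with the control guide.

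CYP1A1 (chromosome 15, 74719542 to 74725528, minus strand), the target most often used as a readout of AHR activity, stayed low and overlapped between the guides. Its controls A to E stood at 0.624, 0.446, 0.358, 0.514 and 0.601 CPM and its EFNB2 guide libraries at 0.478, 0.734, 0.564, 0.717 and 0.751 CPM. The A library was the highest of the controls and the lowest of the EFNB2 guide. The ratio of summed counts, 164 against 137, was 1.27 (95% exact interval 1.01 to 1.61, counting error only), and the log2 fold change was 0.35 (SE 0.20). CYP1A1 lies on chromosome 15, where 63.9% of 623 tested genes rose, against 21.3% on other chromosomes, and where the median log2 fold change was 0.31. Its part in the CYP1A1 difference was not tested.

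TIPARP and AHRR, both feedback inhibitors of AHR, were slightly higher with the EFNB2 guide. TIPARP (chromosome 3, 156674590 to 156706770, plus strand), a mono-ADP-ribosyltransferase, stood at 11.2, 11.03, 11.9, 11.4 and 12.8 CPM in the controls A to E. With the EFNB2 guide it stood at 12.7, 13.3, 14.7, 14.3 and 13.8 CPM. Only the control E library reached into the range of the EFNB2 guide, and the log2 fold change was 0.24 (SE 0.05). AHRR (chromosome 5, 321714 to 438285, plus strand) stood at 6.69, 5.605, 4.71, 5.67 and 5.65 CPM in the controls A to E. With the EFNB2 guide it stood at 6.19, 6.997, 7.65, 7.32 and 7.67 CPM. The A libraries ran against the rest, the control A library lying above the EFNB2 A library, and the log2 fold change was 0.34 (SE 0.09). PDCD6, which shares 3.18% of the exon bases of AHRR on the same strand, stood at 9.15 and 11.1 CPM and did not pass (0.28, SE 0.12, adjusted p = 0.0704). As in AHRR, the A library was the highest control (12.0 CPM) and the lowest library of the EFNB2 guide (8.52 CPM). The part of PDCD6 in the AHRR difference was not tested.

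The tryptophan enzymes among the 9 genes were not detectable at this depth. IDO1, which opens tryptophan's ring, had 3 counts, all in the EFNB2 B library, and KYNU, which cleaves kynurenine, had 1 count, in the control E library. Over a group, 3 counts correspond to 0.0118 CPM for the EFNB2 guide libraries and 0.0111 CPM for the controls.

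In all, 6 of the 9 genes passed the filter on low counts, and 5 of the 6 were past the threshold (IL4I1, CYP1B1, TIPARP and AHRR higher, ARNT lower), beside a background of 45.4%. Only IL4I1 and CYP1B1 differed by at least 2-fold as higher, beside a background of 2.92%, and only in these 2 of the 6 did the groups not overlap, beside a background of 30.3%. Since this contrast chose the genes, nothing further is read from these counts.

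Other AHR targets came from a list of 35 genes that leaves out the 9 and was chosen with earlier results of these data known. Most of those tested did not pass. Of the list, 15 were tested, 5 rose and 1 fell, beside 22.8% higher and 22.6% lower among all tested genes. The median log2 fold change was 0.06 against 0.01 over all tested genes. ENTPD1, which encodes the ectonucleotidase CD39, rose from 54.4 to 75.2 CPM (0.47, SE 0.04, adjusted p = 4.64e-08). The efflux pump ABCG2 rose from 13.7 to 18.9 CPM (0.46, SE 0.04) and the death receptor gene FAS from 28.1 to 38.0 CPM (0.44, SE 0.05). The growth factor genes VEGFA (0.26) and TGFA (0.35) made up the other rises. TGFA stood at 0.22 on the deposited normalized values, and did not pass with the replicate letter as a block (adjusted p = 0.0600) or without both A libraries (log2 fold change 0.21, adjusted p = 0.108). The single fall was that of HES1, a Notch-responsive repressor at 0.500 and 0.157 CPM (-1.64, SE 0.35, and -0.37 on the deposited normalized values). HES1 reached the level of the filter in 5 controls and in 1 library of the EFNB2 guide, so it was tested only through the group in which it is higher.

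The list's xenobiotic enzymes were mostly silent or level. NQO1, a quinone reductase, stood at 17.0 CPM ± 0.937 and 17.6 CPM ± 1.54 (SD, n = 5 each; 0.05, SE 0.06) and did not pass. NFE2L2, the regulator of the antioxidant response, stood at 53.9 and 56.2 CPM and did not pass either (0.06, SE 0.04). CYP1A2 had 1 count in all, UGT1A6 14 counts and ALDH3A1 46 counts, and none of them was tested. SLC7A5, which carries tryptophan and kynurenine into cells and is counted among AHR targets, did not pass (-0.06, SE 0.04, adjusted p = 0.176). Below the filter, AREG had 22 counts with the EFNB2 guide against 5 (ratio 4.68, 95% exact interval 1.73 to 15.8, counting error only). CD36 had 27 against 0, a ratio of 9.58 if 3 counts are assumed over the control group, given without an interval. Outside the naming rule, VEGFA, TGFA, HES1, UGT1A6, ALDH3A1, AREG and CD36 here, PDCD6 and CYP1B1-AS1 above, and OPN3, SIM1, INMT, SLC7A8, FCER2, SOCS1, IL13RA1, IL13, CISH, IL4, ITGAM, S100A8 and CD1C below were named after their values were seen.

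**Figure D4:**
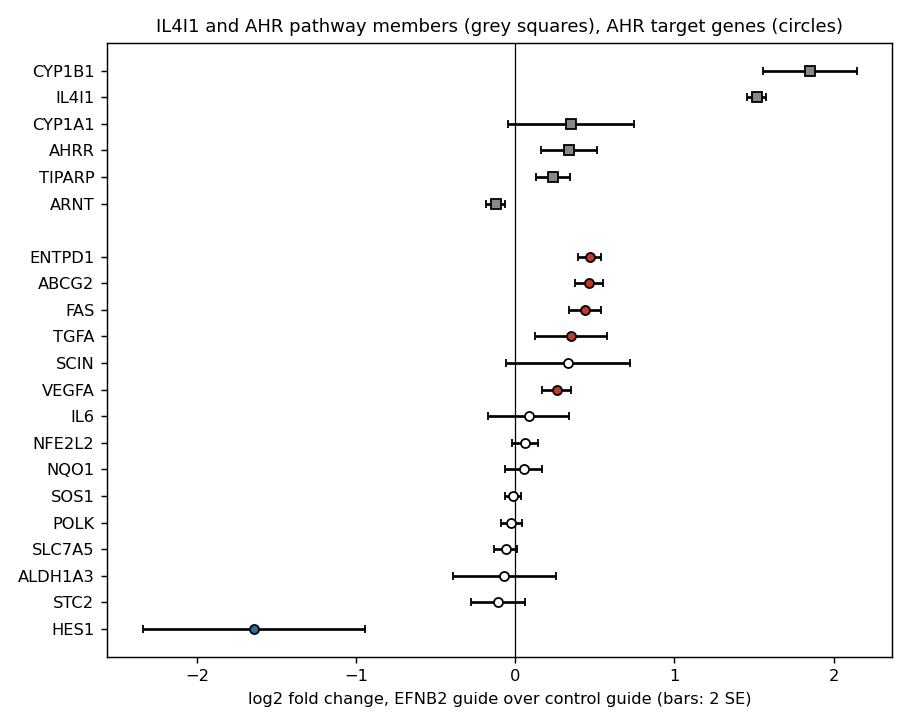
Log2 fold change between the guides (horizontal axis, bars of 2 SE on each side) for the 6 tested genes of the pathway (grey squares, given without a test) and 15 tested AHR targets (circles). Red circles rose, the blue circle fell and open circles did not pass, and only CYP1B1 and IL4I1 lie above 1.

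Among genes for the proteins that hold AHR in the cytosol or act with it in the nucleus, falls outnumbered rises. Of 23 genes for chaperones and coregulators, all tested, 3 rose and 8 fell, beside 22.8% higher and 22.6% lower among all tested genes, with a median of 0.01. HSP90AB1, the gene for a chaperone that holds AHR, stood at 3154 and 3193 CPM and did not pass (0.02, SE 0.02). The corepressor gene NRIP1 fell from 11.6 to 6.38 CPM (-0.86, SE 0.06, adjusted p = 4.31e-08) and the coactivator NCOA2 by 0.20. NCOA3 fell by 0.14 (adjusted p = 0.0235), or by 0.22 without both A libraries, a call lost in 9 of 20 alternatives (adjusted p up to 0.0873). RB1 (0.25), RELB (0.21), an NF-kB subunit that pairs with AHR, and the exporter XPO1 (0.10) rose.

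In the bHLH-PAS family, to which AHR and ARNT belong, 3 of 9 tested genes rose and 3 fell. Over all tested genes 22.8% were higher and 22.6% lower. ARNTL, the clock factor BMAL1, rose from 31.6 to 42.6 CPM (0.43, SE 0.04) and the hypoxia factor HIF1A from 64.6 to 71.6 CPM (0.15, SE 0.04, and 0.08 without both A libraries). ARNTL2 rose (0.11, adjusted p = 0.0150), but not when all genes were tested (adjusted p = 0.0542) or on the normalized values as deposited (0.0584). The clock gene PER3 fell from 5.82 to 3.27 CPM (-0.83, SE 0.11), and the neuronal factors NPAS1 (-0.40) and NPAS3 (-0.24) fell less. Below the filter, ARNT2, a second partner for AHR that lies on chromosome 15, had 81 counts against 24. SIM1 had 47 against 3 (ratio 16.7, 95% exact interval 5.37 to 83.7, counting error only).

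Of 20 counted genes for enzymes of tryptophan and kynurenine metabolism, 10 were tested, 2 rose and 2 fell, with a median of -0.03. Shares over all tested genes were 22.8% higher and 22.6% lower. KMO, which hydroxylates kynurenine, rose from 1.47 to 2.72 CPM (0.89, SE 0.12, adjusted p = 2.30e-05, and 0.57 on the deposited normalized values), but 28.4% of its exon bases lie opposite OPN3, which held more counts. The methyltransferase gene INMT, the other gene called higher, stood at 0.0777 and 0.414 CPM (2.38, SE 0.31, and 0.39 on the deposited normalized values). It reached the level of the filter in the EFNB2 guide libraries and in 0 controls, so its call rests on the group in which it is higher. WARS1, the tryptophanyl-tRNA synthetase, fell (-0.14, SE 0.03), and GOT2 fell narrowly (-0.06, adjusted p = 0.0401), a call lost in 11 of 20 alternatives (adjusted p up to 0.124). TDO2, which starts the same pathway as IDO1, had 14 counts against 3, and IDO2 had none.

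Genes that handle the products of amino acid oxidation gave 3 rises and 4 falls among 13 tested, with a median of -0.05. The background was 22.8% higher and 22.6% lower among all tested genes. The peroxidase PRDX1 (0.17, SE 0.03) and the aminotransferase GOT1 (0.15, SE 0.02) rose, and the thioredoxin reductase TXNRD1 fell (-0.25, SE 0.03). FAH rose (0.08, adjusted p = 0.0425), as a gene on chromosome 15, and lost this call in 11 of 19 alternatives (adjusted p up to 0.166). GPX1 fell (-0.17, adjusted p = 0.0238) and lost its call in 7 of 20 (adjusted p up to 0.0763). The cystine transporter gene SLC7A11 fell (-0.14, adjusted p = 0.0170), but not without the B or the D library of the EFNB2 guide (0.0528 and 0.0575). The number of falls was 2 without either of these libraries.

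Among transporters of aromatic amino acids and kynurenine 1 of 9 rose and 4 fell, beside 22.8% higher and 22.6% lower among all tested genes. Their median was -0.11. SLC43A2, a carrier of large neutral amino acids, fell from 27.3 to 13.8 CPM (-0.99, SE 0.05, adjusted p = 7.86e-10) and SLC7A7 from 3.62 to 2.34 CPM (-0.62, SE 0.11). SLC3A2, the partner chain of SLC7A5, fell slightly (-0.12, SE 0.02, adjusted p = 9.52e-04). The single rise was that of SLC7A8, at 0.338 and 1.55 CPM (2.19, SE 0.17, and 0.91 on the deposited normalized values). Rises numbered 2 when the A library of either guide was left out and 3 without both.

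More genes of interleukin 4 and STAT6 signalling, the route for which IL4I1 was named, were called higher than lower. Most of these calls were in weakly expressed genes. Of 11 tested genes 7 rose and 1 fell, beside 22.8% higher and 22.6% lower among all tested genes, and the median log2 fold change was 0.33 against 0.01 over all tested genes. TYK2, a Janus kinase gene, rose from 366 to 493 CPM (0.43, SE 0.03) and the receptor gene IL4R from 10.8 to 13.5 CPM (0.33, SE 0.05). JAK3 rose narrowly (0.10, adjusted p = 0.0437), a call lost in 9 of 20 alternatives (adjusted p up to 0.119). The other rises were in weakly expressed genes: FCER2, which encodes the low-affinity IgE receptor CD23 and is a known interleukin 4 target, went from 0.168 to 0.768 CPM (2.19, SE 0.27). SOCS1 (1.41, SE 0.22), IL13RA1 (1.25, SE 0.27) and IL13 (0.64, SE 0.14) rose, and CISH fell (-1.26, SE 0.30). These values depend on how low levels are treated: on the deposited normalized values, where 1 is added before taking logs, FCER2 stood at 0.59, SOCS1 at 0.43, IL13RA1 at 0.34, IL13 at 0.28 and CISH at -0.22. FCER2, SOCS1 and CISH reached the level of the filter in all 5 libraries of one guide alone, the guide in which each is higher. The counts of 7 and 1 and the median of 0.33 include these genes. When 5 libraries had to reach 1 CPM, 3 of the rises were left, as the weakly expressed genes then were not tested. STAT6 itself had 52 counts against 40, too few to be tested, and IL4 had 1 count in all.

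**Figure D5:**
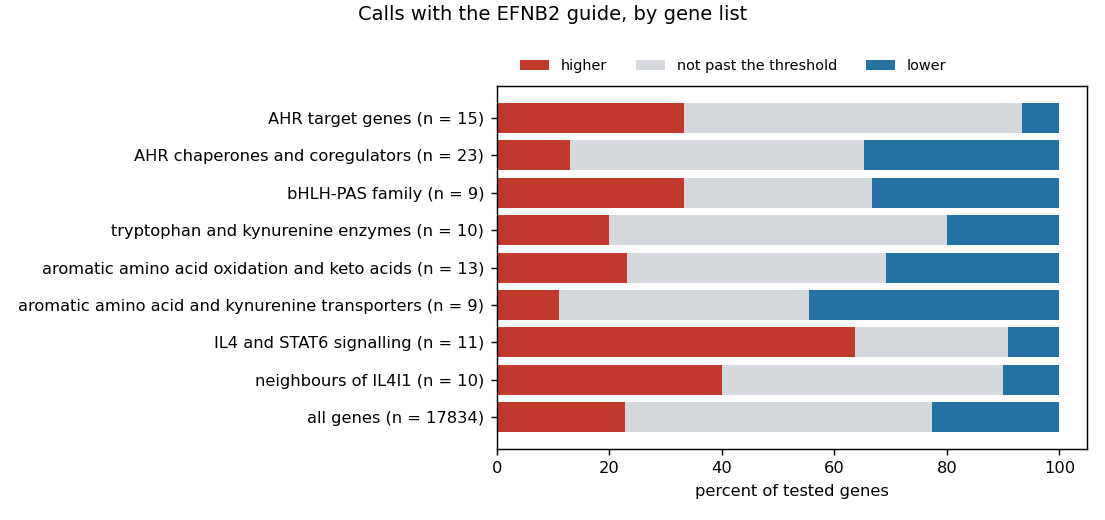
Percent of the tested genes of each list (horizontal axis, number tested in brackets) that were higher (red), not past the threshold (grey) or lower (blue) with the EFNB2 guide, with all tested genes in the bottom row. The interleukin 4 and STAT6 list has the longest red bar, at 7 of 11, beside 22.8% of all genes. These 7 include FCER2 and SOCS1, which reached the level of the filter in all 5 libraries of the EFNB2 guide alone. The transporters have 1 of 9.

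Markers of cells known for IL4I1 were sparse. The myeloid list summed to 2.54 to 3.82 CPM in the EFNB2 guide libraries, against 2.53 to 2.90 CPM in the controls, most of it ITGAM at 2.37 and 2.17 CPM. S100A8 and CD1C had no count in any library, LYZ had 8 counts against 7 and CSF1R 6 against 13. CD14 stood at 0.0782 and 0.287 CPM with the control and the EFNB2 guide, from 21 and 73 counts in all. IL4I1 itself stood above 34 CPM in every library. The B cell list summed to 5.66 to 6.23 CPM in the EFNB2 guide libraries, against 5.20 to 8.17 CPM in the controls, most of it CD79B, and PAX5 had 27 counts against 5. Of 5 tested T and NK cell markers 2 rose, TRAC (0.60, SE 0.07) and GNLY, 1 fell and 2 did not pass. GNLY, named here after its values were seen, reached the level of the filter in 5 libraries of the EFNB2 guide and in 0 controls. Its call therefore rests on the group in which it is higher. The median log2 fold change of the 5 markers, GNLY included, was 0.05. The background was 22.8% higher and 22.6% lower among all tested genes. That list summed to 12.4 to 13.9 CPM in the EFNB2 guide libraries, against 10.1 to 11.5 CPM in the controls.

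Of 12315 other tested genes whose mean log2 CPM reached 1, 5 followed IL4I1 most closely, judged by the root mean square difference of log2 CPM over the 10 libraries after subtracting each gene's control mean. Of these, 4 are given here: SEPTIN1 (difference 0.0944), JCAD (0.111), B4GALNT4 (0.118) and LRMP (0.123). SEPTIN1, a septin gene, stood at 18.9 CPM ± 0.767 and 58.7 CPM ± 2.08 (SD, n = 5 each). The measure is set mainly by the size of the difference between the guides.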

How the data were processed

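RNA of U266 cells was sequenced in 10 libraries, grouped by the genotype label. Libraries were strand-specific and poly(A)-selected, per the labels' protocols. STAR 2.27a, Partek, DESeq2 and the build GRCh38 appear in the submitters' processing notes with no role stated; the annotation and the strand setting of the counting are not given there. The values used are the raw counts per gene that the authors deposited. A normalized signal table, also deposited, served as an alternative: its values are a multiple, fixed for each library, of the count with 0.0001 added (deviation at most 0.000497% where the count exceeded 100). Rows with no gene name, at most 7.00e-05% of counts, were left out.

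Genes passing filterByExpr (17834) were compared after TMM scaling, in edgeR 4.0.16 (R 4.3.3, quasi-likelihood test, Benjamini-Hochberg over all tested genes, threshold 0.05). SE is the absolute log2 fold change over the square root of F, and CPM use TMM-scaled library sizes. Steps were tested on simulated data. Alternatives used DESeq2 1.42.0, limma 3.58.1 (voom, or trend on log2(value + 1) of the deposited values), other scalings and filters, the replicate letter as a block, and left-out libraries or chromosome 15 genes. No library of a guide was a copy of another (chi-square per gene 1.90 to 21.0), so each counts as 1; this does not show separate cultures. The 9 genes and all lists were chosen with earlier results of these data known. From each list, up to 3 rises and 3 falls whose mean log2 CPM reached 1 were named, plus genes fixed by name. Some genes that the rule names are not reported here. Positions and promoters are RefSeq's (GRCh38.p14), and exons GENCODE 29's.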

Additional observations from a re-analysis of the deposited data

Results flagged for a closer look

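In 19 of 140 groups of 5 libraries checked, 1 library stood apart from the other 4 by Dixon's criterion, where chance alone gives about 1 in 20. Of these, 17 were A libraries, 10 with the EFNB2 guide and 7 with the control guide. CD38, NCOA3 and SLC43A2 were flagged in both A libraries, each time toward the values of the other guide. Among genes flagged in a single A library, IL4I1, RELB, NFE2L2, COL3A1 and INMT lay away from the other guide.

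IL4I1 and ARNT were among the genes concerned. In the EFNB2 A library IL4I1 stood at 105.8 CPM, against 100.5 to 101.0 CPM in the other 4, and without that library its log2 fold change was 1.51. In the same library ARNT stood at 102.1 CPM, against 97.9 to 98.9 CPM. Further in the EFNB2 A library, SDC1 at 2410 CPM (others 2037 to 2060), RELB at 98.4 CPM (others 86.5 to 89.2), NCOA3 at 367.2 CPM (others 319.8 to 324.4), TXNRD1 at 220.0 CPM (others 207.6 to 208.4), GPX1 at 62.4 CPM (others 50.5 to 53.7) and SLC43A2 at 15.7 CPM (others 12.9 to 13.7) were high. In that library CD38 at 6.15 CPM (others 8.16 to 8.94) and XBP1 at 342.0 CPM (others 361.9 to 368.8) were low.

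In the control A library CD38 at 2.93 CPM (others 1.33 to 1.69), COL1A1 at 21.6 CPM (others 15.9 to 16.8) and COL3A1 at 5.41 CPM (others 3.4 to 3.92) were high. In that library NFE2L2 at 47.9 CPM (others 54.4 to 56.2), NCOA3 at 321.5 CPM (others 369.9 to 381.3), SLC43A2 at 25.1 CPM (others 27.7 to 28.3) and INMT at 0.0189 CPM (others 0.0896 to 0.097) were low. The remaining 2 were CD14 at 0.143 CPM (others 0.294 to 0.348) in the EFNB2 D library and MZB1 at 4.99 CPM (others 5.61 to 5.82) in the control D library.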

How the results depend on the processing

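IL4I1, CYP1B1, TIPARP, AHRR and ARNT kept their direction in all 20 alternatives, which reuse the libraries that chose them, with IL4I1 between 1.47 (deposited normalized values) and 1.53 in log2 fold change, and between 1.51 and 1.53 when single libraries were left out. Replicate letters did not pair the libraries: deviations from the group means correlated at -0.24 to -0.00303 between libraries of the same letter. The lowest value was that of letter A. Without both A libraries 4992 genes were higher and 4862 lower, against 4072 and 4026 with all 10 libraries. With the replicate block 3425 genes were higher and 3337 lower, and IL4I1 stood at 1.52. AHR targets gave 4 rises and 1 fall, chaperones and coregulators 6 falls, and tryptophan enzymes 1 fall. Tryptophan enzymes also gave 1 fall with library totals alone, without a filter and without chromosome 15 genes. There GOT2 lost its call (adjusted p = 0.0907, 0.123 and 0.0571) while WARS1 kept its own. With library totals alone chaperones and coregulators gave 5 rises and transporters 2, and without both A libraries transporters gave 3 rises, the cause not tested. With at least 1 CPM in 5 libraries fewer genes were tested, and AHR targets gave 0 falls, tryptophan enzymes 1 rise, and the interleukin 4 list 3 rises and 0 falls.

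When single libraries were left out, genes called higher ran from 3729 to 4608 and lower from 3514 to 4522, tryptophan enzyme falls from 1 to 2 (1 without B, C, D or E of the EFNB2 guide or C, D or E of the controls), product-handling falls from 2 to 6 and transporter rises from 1 to 2. Of the values for single genes under alternatives, 71 lost their call and none reversed. The deposited normalized values, with 1 added before logs, gave smaller differences for weakly expressed genes, among them CYP1B1 (0.94). At this depth 3 counts, 0.0537 to 0.0627 CPM, limit what can be said of AHR, IDO1, KYNU and CYP1A2.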
